A study of Mus musculus with 8 samples.

Results

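Vascular calcification depends on a balance of transcripts that make, remove or answer to mineral. Of these genes 10 were followed across 8 libraries of mouse thoracic aorta: Spp1, Ibsp, Mgp, Fetub, Tnfrsf11b, Enpp1, Ank, Alpl, Slc20a1 and Runx2. They were chosen by name from the 23993 genes of the expression table, for known roles in vascular or skeletal mineralization. All 8 libraries came from C57BL/6 males of 24 weeks that carried Myh11-CreERT2, a Cre recombinase active in smooth muscle after tamoxifen, and the mT/mG fluorescent reporter, and all had tamoxifen at 1.5 weeks. The 4 controls were Tsc1+/+, and the 4 knockouts were Tsc1fl/fl, so that smooth muscle cells lose Tsc1, a restraint on the growth kinase mTORC1. RNA was taken from the whole vessel wall, polyA-selected and sequenced, with 1 library per replicate number. The labels do not say that replicates came from separate mice, and where they did not, p-values cover a spread that may be technical.

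Mineral forms in soft tissue when calcium and phosphate are no longer kept apart by inhibitors. Pyrophosphate, the main small inhibitor, is made outside the cell by ENPP1 from ATP that reaches the cell surface with the help of ANK, and it is cut to phosphate by the alkaline phosphatase ALPL. Matrix proteins such as MGP, osteopontin (Spp1) and the fetuins bind calcium or crystal surfaces, while RUNX2 drives the bone programme to which ALPL and bone sialoprotein (Ibsp) belong. Mineral itself, protein levels and protein modifications were not measured here.

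Upstream sequences are shown for 2 of the genes with the largest rises, Spp1 and Fetub, for Ank, the pyrophosphate gene that rose most, and for Alpl, which fell. Each run is the 250 bases before the transcription start in RefSeq (build GRCm38.p6), 5′ to 3′ on the gene's strand, and capitals mark matches to the motifs searched.
Spp1, chr5:104434861-104435110, plus strand: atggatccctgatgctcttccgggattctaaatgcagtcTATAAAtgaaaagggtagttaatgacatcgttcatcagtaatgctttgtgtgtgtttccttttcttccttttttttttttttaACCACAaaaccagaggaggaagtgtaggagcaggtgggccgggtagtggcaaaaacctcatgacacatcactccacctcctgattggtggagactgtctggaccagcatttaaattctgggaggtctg
Fetub, chr16:22918132-22918381, plus strand: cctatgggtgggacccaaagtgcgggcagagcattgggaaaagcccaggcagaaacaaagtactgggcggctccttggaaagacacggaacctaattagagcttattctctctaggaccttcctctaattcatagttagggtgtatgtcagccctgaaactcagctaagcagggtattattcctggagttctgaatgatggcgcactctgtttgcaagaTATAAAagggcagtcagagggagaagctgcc
Ank, chr15:27466427-27466676, plus strand: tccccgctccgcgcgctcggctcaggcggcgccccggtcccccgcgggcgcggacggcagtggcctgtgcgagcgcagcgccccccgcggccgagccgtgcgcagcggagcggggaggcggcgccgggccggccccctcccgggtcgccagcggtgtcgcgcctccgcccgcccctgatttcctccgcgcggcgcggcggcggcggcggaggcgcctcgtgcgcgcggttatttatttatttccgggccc
Alpl, chr4:137796385-137796634, minus strand: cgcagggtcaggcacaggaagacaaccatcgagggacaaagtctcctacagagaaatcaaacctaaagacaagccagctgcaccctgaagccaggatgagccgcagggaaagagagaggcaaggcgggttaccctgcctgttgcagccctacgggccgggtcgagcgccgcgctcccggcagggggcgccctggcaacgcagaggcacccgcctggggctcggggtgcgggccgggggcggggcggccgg

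These motifs were searched in the same window of all 32851 RefSeq promoters of the table, 8 of the 10 genes among them. The core site of RUNX factors (TGTGGT, or ACCACA on the other strand) was found in 4 of the 8, those of Spp1, Enpp1, Slc20a1 and Runx2, and in 14% of all promoters. The Spp1 match begins 128 bases before the start. The E-box CACGTG, the same on both strands and the core of sites bound by TFEB and related factors, was found in 1 of the 8, Slc20a1, which holds 2 copies at 175 and 22 bases, and in 6.02% of all promoters. The TATAAA box, searched on the gene's strand only, was found in Spp1 and Fetub and in 7.59% of all promoters. In Fetub it begins 31 bases before the start, and in Spp1 211 bases. No member held the AP-1 site TGANTCA, searched on both strands, against 6.75% of all promoters. The Ank window is 81.2% G or C and that of Spp1 43.6%. A match is a string of letters and not a shown binding site.

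In the knockout aortas 7 of the 10 genes were higher and 2 lower, at an adjusted p under 0.05 in limma, while Runx2 was too low to enter that test. Ibsp, 1 of the 2 lower genes, entered it through its control values alone. By the ratio of means Spp1, Fetub, Tnfrsf11b, Ank and Mgp rose between 2.82-fold and 28.9-fold, Slc20a1 1.27-fold and Enpp1 1.19-fold. Alpl and Ibsp fell to 0.479 and 0.315 times the control level. Of all 12107 genes tested, 32.2% passed the same threshold, 17.1% as higher and 15.0% as lower. The median log2 difference of the 9 tested members was 1.52, against 0.006 over all genes tested. For 6 members each knockout value exceeded each control value, and for 2 it was the reverse, where 33.9% of all tested genes had groups that did not overlap (18.3% above and 15.6% below). Among the 2074 genes called higher, Spp1 ranked 2 by log2 difference, Fetub 3, Tnfrsf11b 22, Ank 55 and Mgp 71, whereas Slc20a1 ranked 1407 and Enpp1 1886. The members were picked with earlier results of these libraries known, so these counts describe them and do not stand as independent evidence.

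**Figure D1:**
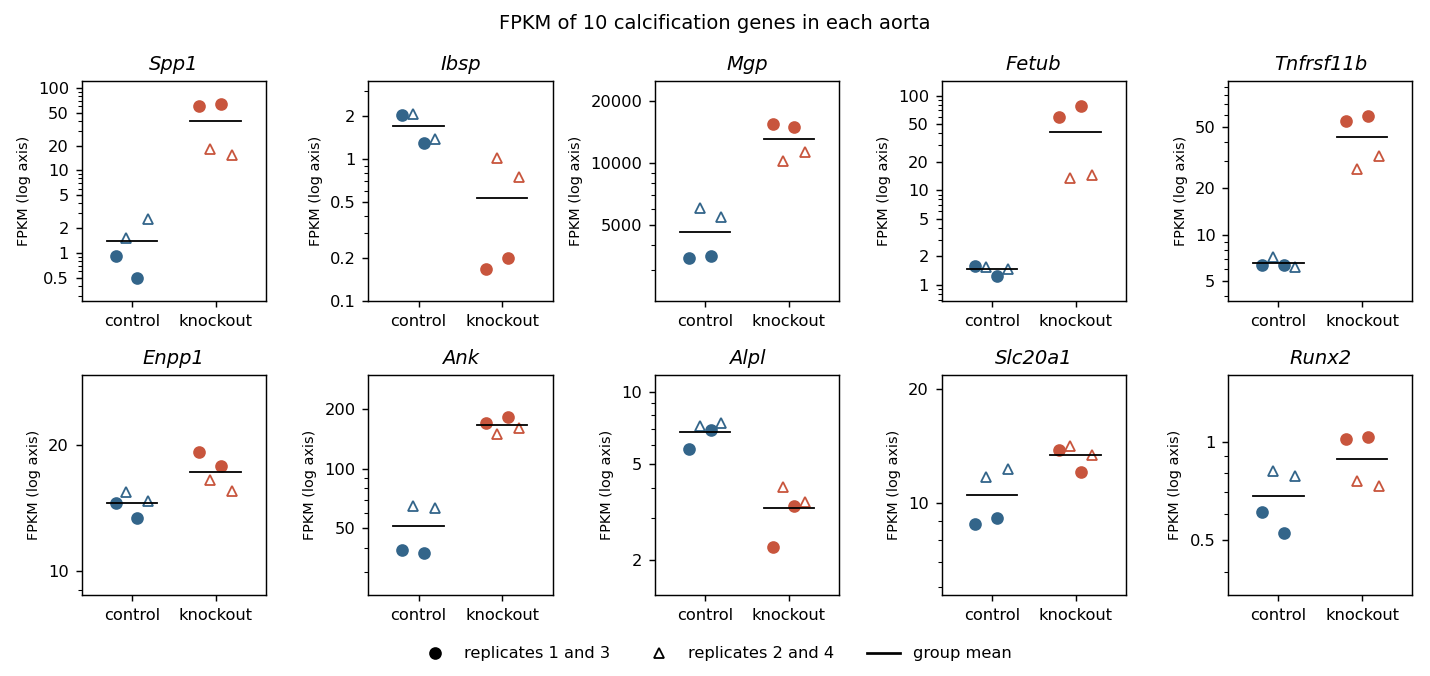
FPKM on a log axis for each of the 10 genes, 1 panel a gene, with 4 control libraries (blue) and 4 knockout libraries (red), circles for replicates 1 and 3, open triangles for replicates 2 and 4, and a line at the arithmetic group mean. The groups are apart in 8 panels and overlap for Slc20a1 and Runx2, and in the Spp1, Fetub, Tnfrsf11b and Mgp panels the knockout circles lie above the knockout triangles.

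Values are FPKM, a level per length of transcript, so levels may be compared between genes. The whole-wall RNA mixes cell types, and in it more cells of a type and more RNA per cell cannot be told apart. The libraries held an estimated 13400000 to 43100000 fragments, as read from the smallest steps of low FPKM values, and 11867 to 12083 genes reached 1 FPKM in each. Tsc1, the targeted gene, had 4.03, 4.82, 4.95 and 6.32 FPKM across controls 1 to 4, then 2.99, 3.58, 3.37 and 3.71 across knockouts 1 to 4. It was lower in all 4 knockouts (log2 difference -0.44, SE 0.12, adjusted p = 0.019). The wall also holds cells without Cre, and where the remaining Tsc1 transcripts came from was not tested. Smooth muscle markers summed to 17579 to 17912 FPKM in controls and 11565 to 15493 in knockouts, with Myh11 and Acta2 abundant in every library, and 5 of 8 of them fell.

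Among the mineral-binding secreted proteins, Spp1 (ENSMUSG00000029304.14, chromosome 5, 104435118 to 104441050 in mm10) had the largest fold by the ratio of means. Osteopontin, its product, is an acidic phosphoprotein that coats mineral and also binds integrins and CD44. Spp1 had 0.924, 1.51, 0.492 and 2.56 FPKM across controls 1 to 4, then 61.3, 18.4, 63.6 and 15.5 across knockouts 1 to 4. Every knockout was above every control, but knockouts 1 and 3 were far above knockouts 2 and 4. The group means were 1.37 ± 0.898 and 39.7 ± 26.3 FPKM (SD, n = 4), a log2 difference of 3.90 (SE 0.49, limma adjusted p = 6.02e-04). The control values rest on few fragments, about 21.3 in control 1 and 71.7 in control 4 by the same estimate.

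Ibsp (ENSMUSG00000029306.8, chromosome 5, 104299171 to 104311469) encodes bone sialoprotein, of the same family of acidic phosphoproteins as osteopontin, and lies 123649 bases before Spp1 on the same strand. It went the other way. Its values were 2.03, 2.08, 1.30 and 1.38 FPKM across controls 1 to 4, then 0.170, 1.02, 0.201 and 0.749 across knockouts 1 to 4. All 4 knockouts were below all 4 controls, and knockouts 1 and 3, the highest for Spp1, were the lowest for Ibsp. The mean fell from 1.70 ± 0.414 to 0.535 ± 0.419 FPKM (log2 difference -0.84, SE 0.20, limma adjusted p = 0.0136). Ibsp passed the filter of a mean of 1 FPKM through its controls alone, and its knockout values stand on an estimated 4.3 to 44.7 fragments. The ratio of Spp1 to Ibsp ran from 0.379 to 1.85 in the controls and from 18 to 361 in the knockouts.

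The Ibsp and Spp1 genes belong to a cluster of acidic phosphoprotein genes on chromosome 5, of which the others were close to silent. Dspp, of dentin, was listed at 0 in all 8 libraries. Mepe, between Ibsp and Spp1, was at 0.00391 ± 0.00782 FPKM in controls and listed at 0 in every knockout. Dmp1, a matrix protein of osteocytes, was at 0.0553 ± 0.0498 and 0.257 ± 0.154 FPKM, under the filter. Pkd2, the polycystin gene 18400 bases past Spp1, had 30.1 ± 1.27 and 31.7 ± 0.49 FPKM and did not pass (log2 difference 0.07, adjusted p = 0.296).

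Mgp (ENSMUSG00000030218.2, chromosome 6, 136872435 to 136875823) encodes matrix Gla protein, a small vitamin K-dependent protein whose loss in mice calcifies the arteries. It was the highest of the 10 genes in every library. Controls 1 to 4 had 3431, 6061, 3527 and 5469.5 FPKM and knockouts 1 to 4 had 15554, 10294, 15034 and 11337. The groups did not overlap, and their order within a genotype was turned round: controls 1 and 3 were the lowest of the controls, and knockouts 1 and 3 the highest of the knockouts. The means were 4622 ± 1343 and 13055 ± 2629 FPKM (log2 difference 1.52, SE 0.22, adjusted p = 0.0011, limma). Mgp made up 0.709% to 1.24% of the FPKM sum without small RNA rows in controls, and 2.21% to 3.38% in knockouts. Among the genes left without those rows, it ranked between 3 and 10 in the controls and 1 in each knockout library. With quantile normalization, which ties values to their rank, the log2 difference was 3.07.

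MGP needs its glutamates carboxylated, a step that FPKM cannot show, and no gene listed for that step passed as higher. Ggcx, the vitamin K-dependent carboxylase, had 20.8 ± 0.83 and 19.7 ± 0.839 FPKM and did not pass (log2 difference -0.08, adjusted p = 0.323). Vkorc1, the reductase that recycles vitamin K, fell from 123 ± 2.96 to 97.1 ± 4.91 FPKM (-0.34, adjusted p = 0.00169). Its relative Vkorc1l1 had 9.88 ± 0.608 and 9.41 ± 0.309 FPKM and did not pass (-0.06, adjusted p = 0.462). Gas6, another Gla protein and the ligand of the receptor AXL, rose from 275 ± 25.6 to 393 ± 71.5 FPKM (0.50, adjusted p = 0.0173). Its receptor gene Axl rose from 138 ± 18.3 to 214 ± 24.4 FPKM (0.63, adjusted p = 0.00334). Art4, an ADP-ribosyltransferase of the cell surface and the nearest coding gene to Mgp at 14702 bases, rose as well. It had 13.7, 17.0, 18.0 and 21.2 FPKM across controls 1 to 4, then 56.5, 34.6, 60.9 and 47.8 across knockouts 1 to 4 (log2 difference 1.45, SE 0.18, adjusted p = 6.04e-04). Whether fragments of one gene were assigned to the other was not tested.

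Fetub (ENSMUSG00000022871.13, chromosome 16, 22918334 to 22939778) encodes fetuin-B, a secreted protease inhibitor made mostly by the liver and related to fetuin-A, which keeps calcium phosphate in solution in blood. Fetub had 1.58, 1.56, 1.24 and 1.48 FPKM across controls 1 to 4, then 59.9, 13.6, 77.3 and 14.6 across knockouts 1 to 4. The controls were close together, and knockouts 1 and 3 were several times above knockouts 2 and 4. The means were 1.46 ± 0.156 and 41.3 ± 32.3 FPKM (log2 difference 3.71, SE 0.53, adjusted p = 0.0011, limma). Ahsg, the gene of fetuin-A, ends 18885 bases before Fetub and was also higher. Ahsg values were 8.51, 16.8, 7.84 and 10.9 FPKM in controls and 22.2, 15.6, 24.6 and 19.8 in knockouts, with knockout 2 inside the control range (log2 difference 0.88, SE 0.22, adjusted p = 0.0164). Within odd-numbered libraries it differed by 1.41, and within even-numbered ones by 0.35, where the call was lost (adjusted p = 0.305). Hrg, on the far side of Fetub, was at 0.088 ± 0.132 and 0.0605 ± 0.121 FPKM. The 10 hepatocyte markers summed to 18.5 to 47.3 FPKM in controls and 17.6 to 59.2 in knockouts, and 0 of the 5 tested passed in either direction. Alb, which defines liver, had 4.68, 11.8, 0 and 0.0254 FPKM in the controls by number, and 12.5, 0.37, 0.0239 and 0.28 in the knockouts. It was highest in knockout 1, where Fetub was at 59.9 FPKM, and low in knockout 3, where Fetub was at 77.3, while control 2 had nearly as much Alb with Fetub at 1.56. The part of liver RNA in the Fetub difference was not tested. The control values of Fetub stand on an estimated 38.9 to 74.6 fragments.

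Tnfrsf11b (ENSMUSG00000063727.3, chromosome 15, 54250619 to 54278484) encodes osteoprotegerin, a secreted decoy that binds RANKL and TRAIL and whose loss in mice calcifies large arteries. It had 6.35, 7.20, 6.38 and 6.22 FPKM across controls 1 to 4, then 54.3, 26.6, 59.0 and 32.5 across knockouts 1 to 4. The controls lay within about 1 FPKM of each other and the lowest knockout was well above them. The means were 6.54 ± 0.449 and 43.1 ± 16 FPKM (log2 difference 2.48, SE 0.23, limma adjusted p = 1.55e-04). Of the 2 tested partners of osteoprotegerin neither passed as higher. Tnfrsf11a, the signalling receptor RANK, fell from 15.1 ± 0.667 to 6.23 ± 2.77 FPKM (-1.24, adjusted p = 0.00536). Tnfsf10 (TRAIL) had 1.86 ± 0.317 and 1.19 ± 0.589 FPKM and did not pass (log2 difference -0.41, adjusted p = 0.108). It was called lower without knockout 4 (-0.58, adjusted p = 0.0115) and within odd numbers (-0.66, adjusted p = 0.0118). Tnfsf11 (RANKL) stayed under 0.1 FPKM in every library, with 0 in controls 2 and 4 and in knockouts 2 and 4.

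Among the pyrophosphate genes, the largest change was that of Ank (ENSMUSG00000022265.7, chromosome 15, 27466677 to 27594909), whose multipass membrane protein is needed for pyrophosphate outside the cell. It had 39.0, 65.1, 37.4 and 63.5 FPKM across controls 1 to 4, then 171, 149.7, 184 and 161 across knockouts 1 to 4. The controls fell into a lower pair, 1 and 3, and a higher pair, 2 and 4, while the knockouts were closer together. The means were 51.3 ± 15.1 and 166 ± 14.4 FPKM (log2 difference 1.72, SE 0.19, limma adjusted p = 3.09e-04). Ank was second to Mgp in level in all 8 libraries.

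Enpp1 (ENSMUSG00000037370.13, chromosome 10, 24637914 to 24712159), the ectoenzyme that releases pyrophosphate from ATP, differed little. It had 14.5, 15.4, 13.4 and 14.7 FPKM across controls 1 to 4, then 19.2, 16.5, 17.8 and 15.5 across knockouts 1 to 4. Knockout 4 was only just above control 2, the highest control. The means were 14.5 ± 0.817 and 17.2 ± 1.61 FPKM (log2 difference 0.23, 95% interval 0.06 to 0.40, adjusted p = 0.0448 by limma). That call was lost in 12 of 18 alternatives, including the removal of any library other than knockout 4 (log2 differences 0.18 to 0.28 over the 8 libraries left out in turn). The difference was 0.38 within odd-numbered libraries (adjusted p = 0.0334) and 0.08 within even-numbered ones (adjusted p = 0.419).

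Alpl (ENSMUSG00000028766.10, chromosome 4, 137741733 to 137796384), the tissue-nonspecific alkaline phosphatase that removes pyrophosphate, was lower in the knockout. It had 5.78, 7.25, 6.98 and 7.41 FPKM across controls 1 to 4, then 2.28, 4.02, 3.37 and 3.48 across knockouts 1 to 4. The highest knockout was below the lowest control. The means were 6.86 ± 0.741 and 3.29 ± 0.732 FPKM (log2 difference -0.89, SE 0.13, limma adjusted p = 0.00141). Within each library the ratio of Ank to Alpl was 5.36 to 8.98 in controls and 37.2 to 75.1 in knockouts. The ratio of Enpp1 to Alpl was 1.92 to 2.52 in controls and 4.10 to 8.43 in knockouts, so on either ratio the groups did not overlap.

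Other genes feed or drain extracellular phosphate and pyrophosphate. Of 12 listed, 8 were tested, 1 rose, 1 fell and 6 did not pass, with a median log2 difference of -0.18. Xpr1, the phosphate exporter, rose from 32.2 ± 3.2 to 47 ± 3.39 FPKM (0.53, adjusted p = 0.00171). Nt5e, the ecto-5′-nucleotidase CD73 that makes adenosine from AMP, fell from 1.93 ± 0.413 to 0.974 ± 0.385 FPKM (-0.58, adjusted p = 0.0267). Its call was lost in 8 of 18 alternatives (-0.62 to -0.46 in those). Nt5e passed the filter of a mean of 1 FPKM through its controls alone, since its knockout mean was below 1. Entpd1, the ectonucleotidase CD39, did not pass at 95.8 ± 8.15 and 87.1 ± 15 FPKM (adjusted p = 0.39). Abcc6, the transporter behind most hepatic ATP release, was low throughout, at 0.109 ± 0.0218 and 0.164 ± 0.0768 FPKM.

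Slc20a1 (ENSMUSG00000027397.14, chromosome 2, 129198764 to 129211616) encodes the phosphate importer PiT-1. It had 8.79, 11.7, 9.14 and 12.3 FPKM across controls 1 to 4, then 13.8, 14.2, 12.1 and 13.4 across knockouts 1 to 4. The groups overlapped, since knockout 3 lay between controls 2 and 4. The means were 10.5 ± 1.8 and 13.4 ± 0.93 FPKM (log2 difference 0.33, 95% interval 0.08 to 0.58, adjusted p = 0.0484, limma). The call was lost in 10 of 18 alternatives, including the removal of control 1, of control 3 or of any knockout (0.26 to 0.38). It was 0.48 within odd-numbered libraries (adjusted p = 0.0262) and 0.18 within even-numbered ones (adjusted p = 0.122). Its relative Slc20a2 (PiT-2) had 28.9 ± 2.36 and 31.5 ± 1.62 FPKM and did not pass (adjusted p = 0.224).

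Runx2 (ENSMUSG00000039153.16, chromosome 17, 44495987 to 44814797), the transcription factor that starts bone formation, averaged 0.785 FPKM over the 8 libraries and was not tested with the other genes. It had 0.610, 0.812, 0.527 and 0.784 FPKM across controls 1 to 4, then 1.02, 0.759, 1.03 and 0.730 across knockouts 1 to 4. Knockouts 1 and 3 were above all controls, while knockouts 2 and 4 were inside the control range. The log2 difference of log2(FPKM + 1) was 0.16, with a two-sided p = 0.171 by exact permutation of the libraries (70 ways, smallest possible p 0.0286). Its partner subunit Cbfb had 9.12 ± 0.715 and 8.76 ± 1.43 FPKM (adjusted p = 0.703, limma).

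**Figure D2:**
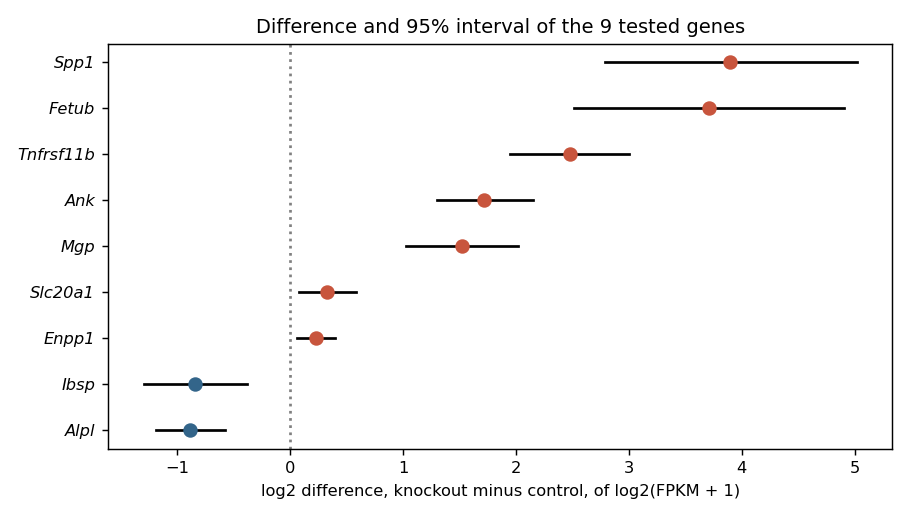
Log2 difference of log2(FPKM + 1), knockout minus control, for the 9 tested genes, with points at the estimate and lines for the 95% interval of limma (n = 4 per group). Spp1 and Fetub are farthest to the right, the intervals of Enpp1 and Slc20a1 lie close to 0, and those of Alpl and Ibsp lie below it.

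The order of the levels changed with genotype. In controls Mgp, Ank, Enpp1 and Slc20a1 followed each other at 4622, 51.3, 14.5 and 10.5 FPKM. Alpl and Tnfrsf11b came next at 6.86 ± 0.741 and 6.54 ± 0.449, and Ibsp, Fetub and Spp1 after them at 1.70 ± 0.414, 1.46 ± 0.156 and 1.37 ± 0.898. Neither of these sets of neighbours differed beyond its spread. In knockouts Tnfrsf11b, Fetub and Spp1 followed Mgp and Ank at 43.1 ± 16, 41.3 ± 32.3 and 39.7 ± 26.3 FPKM, again within their spread. Enpp1 (17.2), Slc20a1 (13.4), Alpl (3.29), Runx2 (0.887) and Ibsp (0.535) had lower means. In knockout 2 Enpp1 and Slc20a1 were above Fetub, and in knockout 4 Enpp1 was above Spp1 and Fetub, so these ranges overlapped, as did those of Runx2 and Ibsp.

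The size of the change followed the replicate number. Replicates 1 and 3 of the knockout had the highest Spp1, Fetub, Tnfrsf11b, Mgp and Ank of all 8 libraries, and the difference from the controls of the same numbers was larger than for replicates 2 and 4. For Spp1 the mean went from 0.708 to 62.4 FPKM among odd-numbered libraries and from 2.04 to 16.9 among even-numbered ones. Fetub went from 1.41 to 68.6 and from 1.52 to 14.1 FPKM, Tnfrsf11b from 6.36 to 56.7 and from 6.71 to 29.5. Ank went from 38.2 to 177 and from 64.3 to 155. The labels give no meaning to odd and even numbers, and this division was taken up because earlier results of these libraries showed it.

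A limma interaction of genotype with odd or even number was fitted, with 2 libraries in each of the combinations. It was called for 5 of the 9 tested members, against 1.62% of all tested genes. The division was chosen from these same libraries, so these calls and p-values are a description. The log2 difference was larger among odd numbers by 2.65 for Spp1 (SE 0.26, adjusted p = 0.00731) and by 2.26 for Fetub (SE 0.18, adjusted p = 0.00635). It was larger by 1.23 for Mgp (adjusted p = 0.00635), by 0.99 for Tnfrsf11b (adjusted p = 0.0343) and by 0.93 for Ank (adjusted p = 0.00769). Within the even-numbered libraries alone each of these 5 genes was still higher in the knockout, by 2.58 for Spp1 and Fetub, 1.98 for Tnfrsf11b, 1.26 for Ank and 0.91 for Mgp on the log2 scale (adjusted p from 0.0025 to 0.0133). For Alpl the differences were -0.96 and -0.81, and their own difference had an interval of -0.64 to 0.35. For Ibsp the difference was -1.16 among odd numbers (adjusted p = 0.01) and -0.53 among even numbers, where its call was lost (adjusted p = 0.0829). The interaction for Ibsp had adjusted p = 0.306. Runx2 differed by 0.37 among odd numbers and by -0.04 among even ones.

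**Figure D3:**
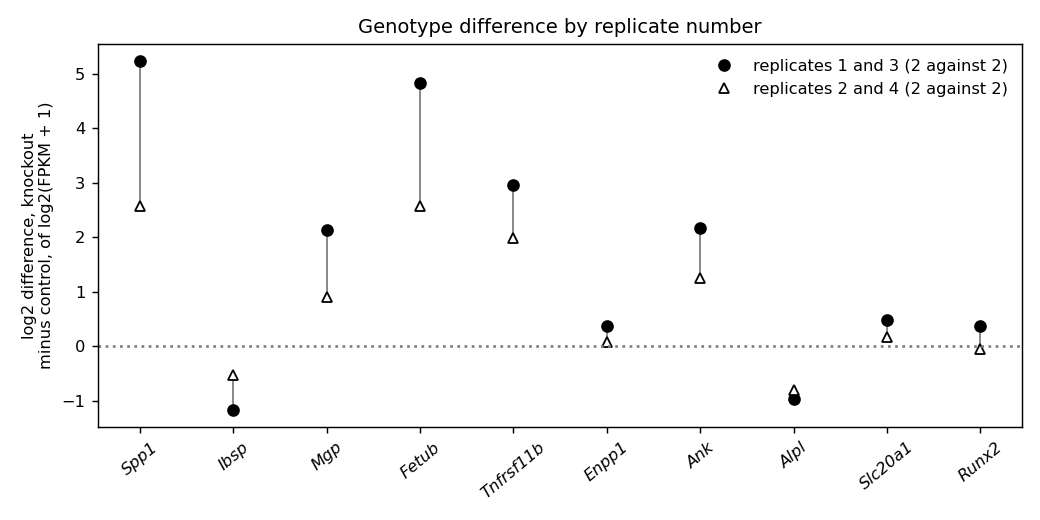
Log2 difference of log2(FPKM + 1), knockout minus control, within replicates 1 and 3 (filled circles) and within replicates 2 and 4 (open triangles), 2 libraries against 2 for each point, for the 10 genes. The circles lie above the triangles for Spp1, Fetub, Mgp, Tnfrsf11b and Ank, and the pair of points nearly coincides for Alpl.

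Smooth muscle markers moved with the same numbers. Their summed FPKM was 11565 and 12310.4 in knockouts 1 and 3, and 15493 and 14365 in knockouts 2 and 4, while the controls were all near 17579 to 17912. Several other marker sums divided by number too. Endothelial sums were 109.6 and 108 FPKM in knockouts 1 and 3, and 153 and 163 in knockouts 2 and 4. Macrophage sums were higher in knockouts 1 and 3 (224 and 218) than in 2 and 4 (169 and 171). In controls they were 254 and 277 against 214 and 194. Osteoclast sums were 25.2 and 31.7 against 20.5 and 19.7 in knockouts. Hepatocyte sums were 59.2 and 28.3 in knockouts 1 and 3, and 17.6 and 20 in knockouts 2 and 4. In controls 1 and 3 they were 34.8 and 23.6, and in controls 2 and 4 they were 47.3 and 18.5. Adventitial fibroblast sums were 1183 and 974 against 827 and 901 in knockouts. Cartilage and bone cell sums were lower in knockouts 1 and 3 (7.9 and 6.68) than in 2 and 4 (11.9 and 11.3). Fat, striated muscle and Schwann cell sums did not divide so in knockouts. The part of these shifts in the rise of Spp1 and Fetub was not tested. Each value was also expressed as a deviation from its group mean. Fetub and Tnfrsf11b then had a Pearson r of 0.97 over the 8 libraries, Mgp and Ank 0.92, and Spp1 and Fetub 0.90. Ibsp and Fetub had -0.81. Runx2 had 0.94 with Mgp and 0.93 with Spp1. Other pairs of risen genes were less alike: Ank had 0.29 with Fetub and 0.33 with Tnfrsf11b, and Mgp had 0.58 with Fetub. These values share libraries and the odd and even division, and they are given as a description.

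Genes that could come from other cells were measured beside the members. Macrophages, a known source of osteopontin, had 11 markers that summed to 194 to 277 FPKM in controls and 169 to 224 in knockouts. None of them rose and 1 fell (Mertk), and Cd68 was at 7.58 ± 0.604 and 7.61 ± 1.71 FPKM. Of 7 osteoclast markers 5 were under 1 FPKM in every library and neither of the 2 tested passed. Of 12 cartilage and bone cell markers 8 were under 1 FPKM in every library, and the 2 tested, Acan and Phex, were called lower. Phex fell from 1.47 ± 0.0792 to 0.654 ± 0.221 FPKM (-0.59, limma adjusted p = 0.00575), and passed the filter through its controls alone. The sum of the 12 markers was 10.6 to 24.4 FPKM in controls and 6.68 to 11.9 in knockouts. Acan was 6.92 to 19.4 and 3.18 to 8.35 of it. The bone factor Sp7 (osterix) was at 0.106 ± 0.106 and 0.15 ± 0.141 FPKM and the cartilage collagen Col2a1 at 0.0458 ± 0.0278 and 0.0739 ± 0.0437. Of 8 endothelial markers 6 were lower, beside 15.0% of all genes tested. Adventitial fibroblast markers were mixed, with 4 of 8 lower and 4 that did not pass. These 4 were Pdgfra (0.26), Col14a1 (0.34), Lum (0.38) and Dpt (-0.26). The part of endothelial cells and adventitial fibroblasts in the members' differences was not tested. Fat cell markers summed to 989 FPKM in control 1 and 247 to 556 elsewhere, and striated muscle markers to 244 in control 4 and at most 12.5 elsewhere. Leaving out either control, the log2 difference of each of Spp1, Fetub, Tnfrsf11b, Ank, Mgp, Alpl and Ibsp kept its direction and its call.

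Beyond the 10 genes, 89 others of the pathway were listed by role, 60 were tested, and 8 rose, 16 fell and 36 did not pass. Their median log2 difference was -0.15. These shares, 8 higher and 16 lower of 60, are set beside 17.1% and 15.0% over all genes.

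Osteochondrogenic factors and matrix genes had 1 gene higher and 4 lower of 11 tested. Sox9, the cartilage-determining factor, had 1.37, 3.02, 1.6 and 3.96 FPKM in controls and 7.47, 5.60, 9.85 and 6.70 in knockouts, without overlap (log2 difference 1.31, SE 0.25, adjusted p = 0.00438). The matrix gene Acan (aggrecan) fell from 14.4 ± 6 to 5.55 ± 2.63 FPKM (-1.23, adjusted p = 0.0317), with overlap between groups and a call lost in 6 of 18 alternatives (-1.27 to -1.04). Sox6 fell (-0.53), as did Mef2c (-0.36) and Twist1 (-0.36), and Dlx5 had 4.38 ± 0.683 and 4.56 ± 0.778 FPKM (adjusted p = 0.816). Comp, a cartilage matrix protein, did not pass at 26.1 ± 7.72 and 21.7 ± 4.09 FPKM (adjusted p = 0.418). Within even numbers the calls of Sox6 (-0.24) and Twist1 (-0.23) were lost. The Mef2c call was lost in 5 of 18 alternatives (-0.33 to -0.22). Sp7, Col2a1, Col10a1, Col9a1, Dlx3 and Msx2 were under the filter.

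Genes of BMP signalling, a trigger of the bone programme, were mostly without a call. Of 14 tested 1 fell, 0 rose and 13 did not pass. Bmp2 had 3.39 ± 0.441 and 2.99 ± 0.826 FPKM (adjusted p = 0.456) and Bmp4 41.9 ± 9.38 and 37.2 ± 5.45 (adjusted p = 0.511). Id1, a target of the pathway, had 127 ± 36.7 and 82.5 ± 23.5 FPKM (adjusted p = 0.0625), and Id3 had 268 ± 32.1 and 288 ± 34.3 (adjusted p = 0.494). The gene that fell was Acvrl1, the type I receptor of endothelial cells, from 27.7 ± 2.5 to 22 ± 1.26 FPKM (-0.32, adjusted p = 0.0118), a call lost within odd numbers (-0.30).

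Osteopontin acts through integrins and CD44. Of 11 tested receptor and protease genes 5 fell, 1 rose and 5 did not pass. Itga5 fell from 202 ± 34.4 to 85.7 ± 19.3 FPKM (-1.24, adjusted p = 8.75e-04), Itgb3 from 45.4 ± 6.67 to 24.3 ± 2.63 (-0.87) and Cd44 from 23.1 ± 1.62 to 12.7 ± 0.819 (-0.82). Itgb1 (-0.49) and Itga8 (-0.50), the integrin alpha chain of smooth muscle, also fell. Both lost the call with quantile normalization (-0.28 and -0.21), and Itga8 also within even numbers (-0.23). Itga9, another alpha chain that binds osteopontin, did not pass at 185 ± 21.6 and 176 ± 31.5 FPKM (adjusted p = 0.653). Itgb5 was the one that rose, from 275 ± 24 to 383 ± 34.3 FPKM (0.48, adjusted p = 0.00312), while Itgav, the alpha chain it pairs with, had a log2 difference of -0.19 (adjusted p = 0.192).

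Other mineral-binding and circulating regulators were mixed. Sparc (osteonectin, a collagen- and calcium-binding protein) fell from 1389 ± 80.7 to 771 ± 32.8 FPKM (-0.85, adjusted p = 4.35e-05). Osteocalcin (Bglap) averaged 0.0479 and 0.315 FPKM, under the filter. Sost, a Wnt inhibitor best known from osteocytes, was abundant at 795 ± 117 and 721 ± 112 FPKM and did not pass (adjusted p = 0.469). Pth1r, the parathyroid hormone receptor, fell from 17.4 ± 2.79 to 12.2 ± 1.67 FPKM (-0.48, adjusted p = 0.0191), a call lost without control 2 (-0.40) or control 4 (-0.43). Klotho, Fgf23, Casr, Vdr and Dkk1 were each under the filter. Of the 5 annexins found in matrix vesicles Anxa5 rose from 187 ± 5.87 to 249 ± 21.5 FPKM (0.41) and Anxa7 rose (0.25), Anxa2 fell from 290.3 ± 31.7 to 226 ± 8.25 (-0.35), and Anxa1 and Anxa6 did not pass. Anxa1 (0.18, adjusted p = 0.0609) was called higher in 6 of 18 alternatives, among them without knockout 4 (0.23). Anxa2 lost its call within even numbers (-0.24). The Anxa7 call was lost in 8 of 18 alternatives (0.20 to 0.28).

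**Figure D4:**
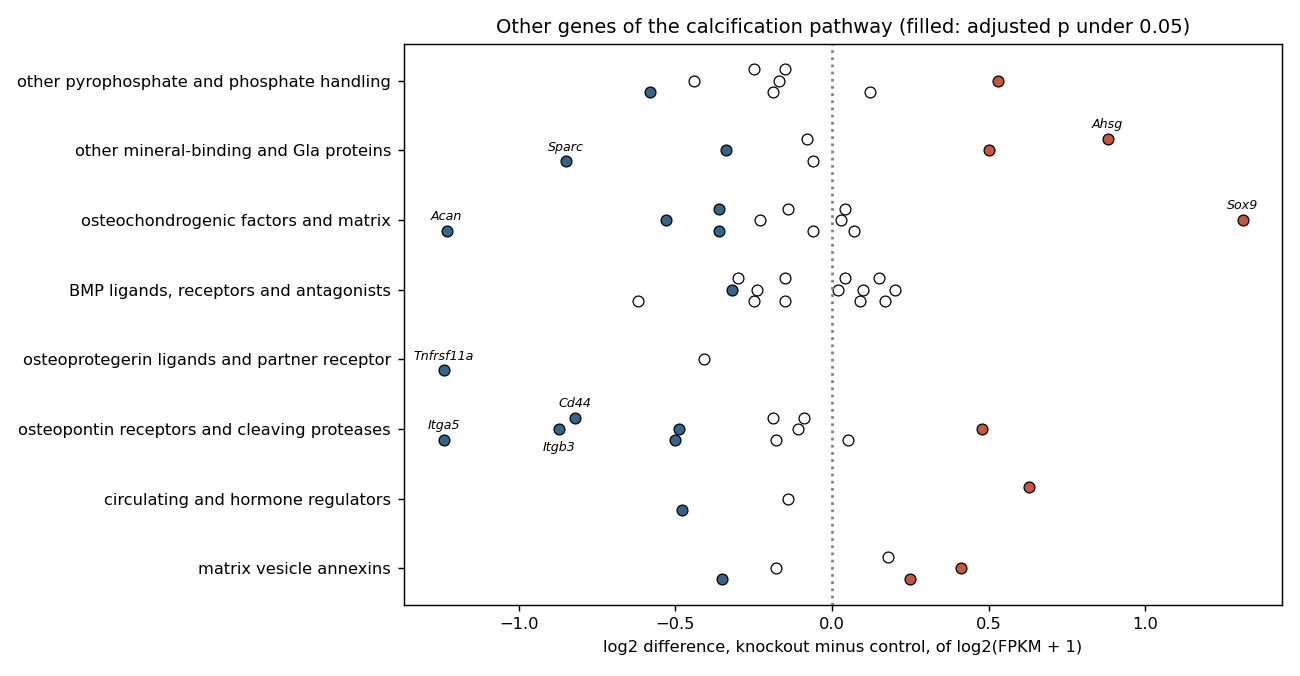
Log2 difference of log2(FPKM + 1), knockout minus control, for the 60 tested genes of the 8 other lists, 1 row a list, filled red for higher and filled blue for lower at an adjusted p under 0.05 in limma (n = 4 per group), open for the rest. Sox9 and Ahsg are the farthest to the right, and Acan, Tnfrsf11a and Itga5 the farthest to the left.

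The coding genes next to the members were followed for position. Of 19 such genes 11 were tested, 4 rose and 0 fell, beside 17.1% higher and 15.0% lower over all genes tested. Besides Art4 and Ahsg these were Fbxl7, 571097 bases before Ank (from 3.27 ± 0.509 to 5.67 ± 0.296 FPKM, log2 difference 0.65, adjusted p = 0.0011), and Clic5, near Runx2 (0.44, adjusted p = 0.0486, a call lost in 12 of 18 alternatives at 0.32 to 0.51). The neighbours of Alpl, Rap1gap and Ece1, did not pass (-0.06 and -0.26).

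The genes whose values ran most alike were found by Pearson's r of log2(FPKM + 1) over the 8 libraries, a measure that carries the genotype difference itself. For Spp1 they were Tmem150a (r = 0.996), Serinc2 (0.995) and Pde1b (0.995). For Fetub they were Ttll12 (0.996), Dpyd (0.995) and Chst11 (0.995), and for Tnfrsf11b Hgs (0.997), Fnbp1 (0.997) and Tec (0.996). Dram1 (0.995), Sh3bp2 (0.993) and Cib1 (0.990) were most like Mgp, and Ndp (0.999), Aox1 (0.996) and Slc7a2 (0.996) most like Ank. Alpl ran most like Zfp651 (0.997), Pbxip1 (0.996) and Hspg2 (0.991), and Ibsp like Snx4 (0.992), A530046M15Rik (0.985) and Hspb6 (0.979). Enpp1 ran most like Tmem206 (0.994), Rasa4 (0.98) and Zfp189 (0.973), and Slc20a1 like 6430706D22Rik (0.986), Cyp4f17 (0.983) and Pkig (0.982). Serinc2, Tec and Dpyd, with control means of 0.797, 0.702 and 0.49 FPKM, passed the filter through their knockout values alone. A530046M15Rik, with a knockout mean of 0.911 FPKM, passed it through its controls alone.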

How the data were processed

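The authors deposited FPKM per gene symbol, 1 column for each of the 8 libraries. Per the submitters' processing notes TopHat2, Cufflinks, Cuffdiff and mm10 were used, without versions. What annotation, strand setting or scaling was used is not given in the sources used here. Overlapping genes may share fragments.

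Values were compared as log2(FPKM + 1), which understates changes of low genes. Genes averaging 1 FPKM or more (12107) entered a limma 3.58.1 fit, run in R 4.3.3 (two-sided, mean-variance trend, genotype as the only term), with Benjamini-Hochberg adjustment over all of them and a threshold of 0.05. The fit was first tested on simulated data. Depth was estimated from genes with 1 annotated transcript over 800 bases and under 0.5 FPKM. From the length 200 bases were taken off, a number chosen after seeing the values. The estimate assumes that FPKM times length falls on whole multiples. Of these genes 38.5% to 53.5% lay within 0.1 (log2) of 1 to 4 fragments, and the share expected by chance was not computed. Named genes were the members, each called gene of the pathway lists with the most abundant uncalled one, 3 genes most like each tested member, and coding neighbours. Some low or uncalled genes (Dlx5, Bmp2, Bmp4, Id1, Cbfb, Tnfsf11, Slc20a2 among them) were named after their values were seen. The odd-even interaction test was added after seeing the data. Older symbols were matched through RefSeq. Members and lists were chosen with earlier results of these data known. Gene positions are from GENCODE M21.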

Additional observations from a re-analysis of the deposited data

Results flagged for a closer look

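The genotype difference of 5 genes differed between odd and even replicate numbers in a limma interaction test over all genes. The difference between odd and even numbers, on the log2 scale, was 2.65 for Spp1, 2.26 for Fetub, 1.23 for Mgp, 0.99 for Tnfrsf11b and 0.93 for Ank. Each combination of genotype and number held 2 libraries, and what separates the numbers is not given in the labels. The division and its test were taken up after these libraries were seen. The calls describe these libraries and are not independent evidence.

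Of 20 groups of 4 libraries, 10 genes in each genotype, 1 had a library that stood apart. Control 2 had 7.20 FPKM of Tnfrsf11b, with the other controls at 6.22 to 6.38, and its gap to the nearest was 0.831 of the group's range. Chance flags about 1 in 20 groups.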

How the results depend on the processing

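Over 18 alternatives the calls of Spp1, Fetub, Tnfrsf11b, Ank, Mgp and Alpl held in every one, with log2 differences of 2.58 to 5.23, 2.58 to 4.84, 1.98 to 2.97, 1.26 to 2.18, 0.91 to 3.07 and -1.06 to -0.76. Ibsp (-1.74 to -0.53) lost its call within the even-numbered libraries alone, which left 1 member called lower. Leaving out 1 library at a time gave 5 to 6 members higher, 2 lower, 1696 to 1889 genes higher and 1454 to 1620 lower, and Runx2 differences of 0.12 to 0.20. Runx2 was at -0.04 within the even-numbered libraries, where 2 against 2 cannot reach the threshold. Of the members, Enpp1 and Slc20a1 lost their calls most often (12 and 10 of 18). Uncalled genes that changed sign were Ggcx (5.70e-04 with equal sums without small RNA), Itga9 (0.20, even numbers) and Sost (0.20 with quantile normalization, 0.18 within even numbers). Scaling to equal sums without small RNA gave 2956 genes higher and 1347 lower, against 2074 and 1819. Of 8 uncalled genes followed, 2 gained a call in some alternative (Tnfsf10 and Anxa1). Of 27 other called genes 14 kept the call throughout, 13 lost it in at least 1 alternative and 0 changed sign. The Tsc1 call was lost within odd numbers (-0.39) and within even numbers (-0.49).

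Whether the replicate numbers pair the samples was not settled, since a low correlation cannot exclude a shared litter or batch. Same-numbered libraries correlated at 0.07 to 0.17 in their deviations from the group means, and 0.07 is under the minimum set. The best match of each library in the other genotype had a number of the same kind, odd or even. With the replicate number as a block 2349 genes were higher and 2122 lower, and 6 and 2 of the members. A covariate that set odd against even numbers gave more calls, 2636 genes higher and 2353 lower, and 7 and 2 of the members. For Runx2 the block, library weights, covariate and quantile fits were not run. Depth limits Ibsp, Runx2 and the control values of Spp1 and Fetub.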
